A study of Mus musculus with 2 samples.

Results

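Sterol and fatty acid synthesis was followed across single cells of mouse glioma through 31 genes, taken by name from the 18366 genes listed in either of 2 count tables. All 31 were listed in both tables. The list holds 7 genes of the mevalonate stage, 11 of squalene and sterol formation, 5 of sterol sensing and transport, and 8 of fatty acid synthesis. The rule takes genes by name and uses no measured value.

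The tumours were PDGFB-driven gliomas of C57BL/6 mice, made by transferring the gene for this growth factor into cells lining the telencephalic ventricles of embryos. They were taken about 40 days after birth, and tumour cells were enriched by sorting for GFP. Cells of 2 tumours were mixed before capture in each of 2 libraries, called here pool 1 and pool 2, and the tumours within a pool were not told apart. Both libraries belong to 1 group with the same genotype and treatment, with no normal brain or untreated group. The comparisons are therefore between cell states inside the tumours.

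Cholesterol is built from acetyl-CoA through mevalonate, isoprenoid diphosphates and squalene, after which lanosterol is trimmed to cholesterol in a chain of demethylation, isomerization and reduction steps. Fatty acids are built from the same acetyl-CoA by carboxylation, chain synthesis, elongation and desaturation. Transcription factors of the SREBP family, released from the endoplasmic reticulum when sterol is low, switch on most genes of both routes. In the brain cholesterol is made locally, and oligodendrocytes are the cells known for the highest demand, because myelin is a lipid-rich membrane.

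After cells with under 500 genes or over 15% mitochondrial UMIs (unique molecular identifiers, 1 per captured RNA molecule) were removed, 3506 cells of pool 1 and 3278 of pool 2 remained. Their median depth was 7440 and 11272 UMIs. The pools shared 4 barcodes. Of 14 clusters, 11 held glial cells in sufficient number for tests. In clusters 2, 7 and 9 most cells that got a cycling or non-cycling call were cycling. Clusters 0 and 6 were shallow, with medians of 1551 to 3315 UMIs. One cluster, of 54 and 31 cells in the pools, had Enpp6, Mbp, Bfsp2, Bmp4 and Myrf among its leading genes and is called committed precursor-like. The 10 committed precursor markers summed to 5865 and 5990 CPM (UMIs scaled to 1000000 UMIs of the summed cells) there, against 653 and 579 CPM in non-cycling precursors. The mature oligodendrocyte markers summed to 12661 and 14154 CPM in it, with 9 and 8 of 11 detected. Its neuronal markers summed to 17.4 and 19.97 CPM, and C1qa, Cx3cr1 and P2ry12 of the microglia were at 0 in both pools. Small clusters held microglia-like cells, 15 in each pool, and oligodendrocyte-like cells, 4 and 20. Cells called non-cycling or cycling in the other glial clusters are called precursors. There were 1546 and 1811 non-cycling and 441 and 313 cycling ones. The marker lists gave none of those other glial clusters a name, so precursor is used as a label and not as a shown identity.

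The summed level of the 18 sterol enzymes was the first readout of the route as a whole. In non-cycling precursors it came to 1311 CPM for pool 1 and 1691 CPM for pool 2. Cycling precursors held 1203 and 1317 CPM. Committed precursor-like cells held 1838 CPM in pool 1 and 1368 CPM in pool 2, so they stood at 1.40 times the level of non-cycling precursors in one pool and at 0.81 times that level in the other. The oligodendrocyte-like cells were split in the same direction, with 2553 CPM in the 4 cells of pool 1 and 923 CPM in the 20 cells of pool 2. Microglia-like cells held 463 and 444 CPM, the lowest of the states in both pools. Free RNA in the droplets can add to any of these levels, and no cell type in the files is known to lack these housekeeping enzymes.

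The 8 fatty acid genes summed to 1232 and 1559 CPM in non-cycling precursors and to 1097 and 1178 CPM in cycling ones. In committed precursor-like cells they reached 1965 and 1858 CPM, 1.59 and 1.19 times the non-cycling level, so here both pools were higher. The oligodendrocyte-like cells reached 3451 and 5162 CPM, 2.80 and 3.31 times the non-cycling level. Scd2 gave most of the UMIs in these sums. Across all 31 genes, 24 stood higher in committed precursor-like cells than in non-cycling precursors in pool 1 and 9 in pool 2, with median ratios of 1.25 and 0.84. The 2 routes together thus stood higher in committed precursor-like cells in 1 pool and not in the other. For these counts too the share over all genes is not given.

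**Figure D1:**
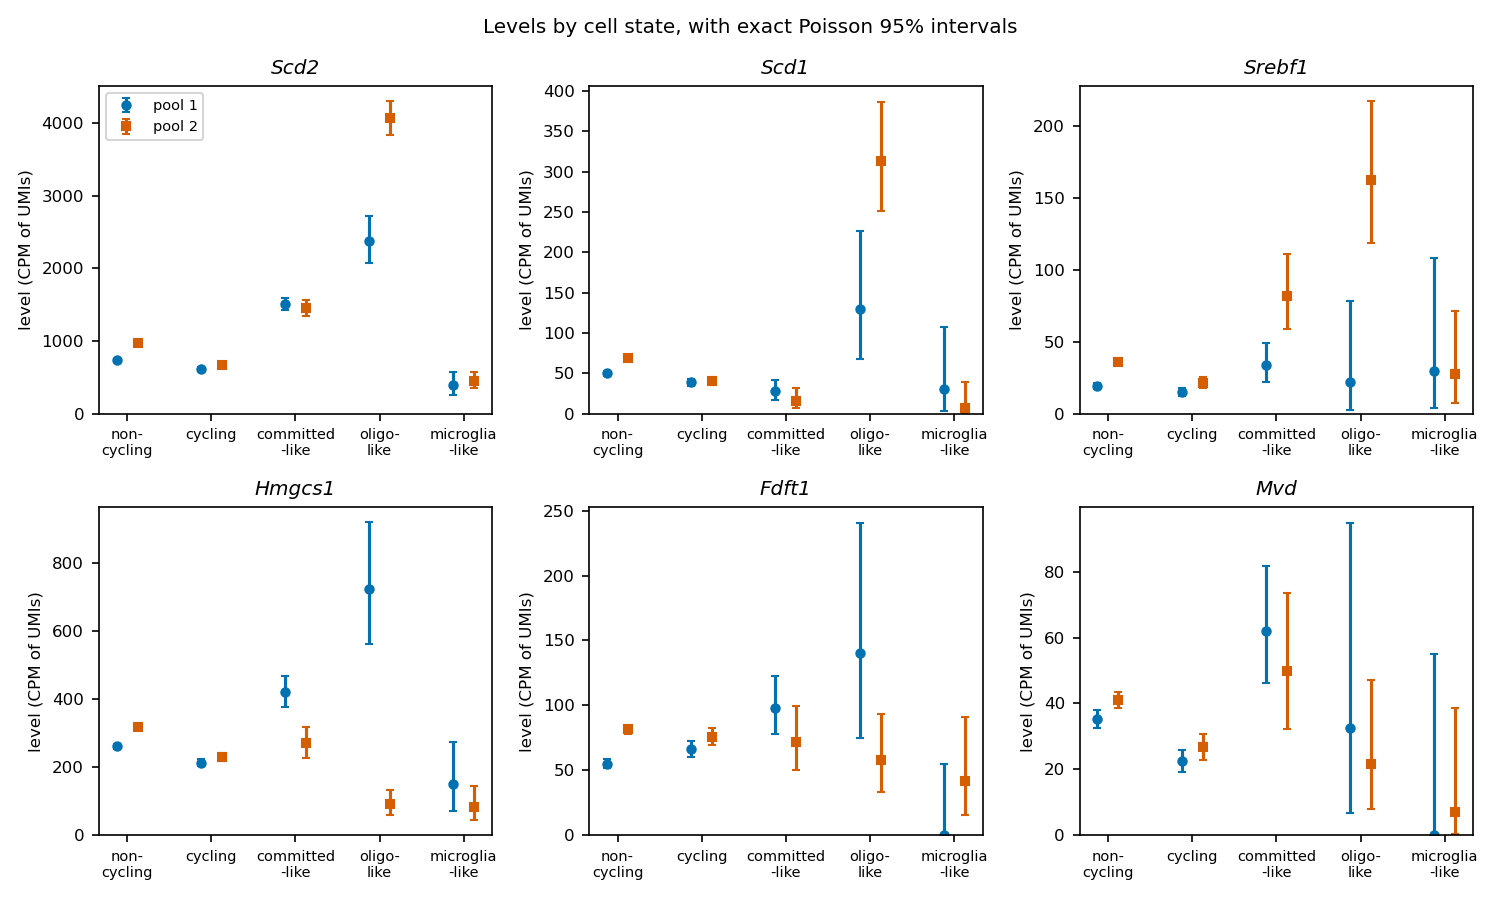
Levels of 6 genes (CPM of summed UMIs, y axis) in 5 cell states (x axis), with a point for each pool and exact Poisson 95% intervals that cover counting error only. Scd2 stands higher in committed-like than in non-cycling cells in both pools and Scd1 stands lower, while Hmgcs1 stood at 420.0 CPM in pool 1 and 269.7 CPM in pool 2 of the committed-like cells.

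Committed precursor-like cells were then tested against the mean of the 10 other glial clusters, with edgeR's quasi-likelihood test over 11245 genes. Each cluster had equal weight in this mean, the shallow clusters 0 and 6 among them. The test used counts that had no part in the clustering. Of the 31 genes, 6 were higher (Hmgcs1, Mvd, Fdft1, Msmo1, Srebf1 and Scd2) and 1 was lower (Scd1), at an adjusted p under 0.05. Of all genes tested, 12.5% were called higher and 9.46% lower. The median log2 difference of the 31 genes was 0.32, against -0.001 over all genes tested. That median rests on pool 1, which gave 0.53, while pool 2 gave -0.08. These p-values rest on a spread between the 2 pools that all tested clusters share, not on that between tumours or animals. They do not measure whether the 2 pools agreed in the committed cluster itself, for which the values per pool are given below.

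In the mevalonate stage 2 of 7 genes were higher and none was lower. Hmgcs1 encodes the cytosolic synthase that makes HMG-CoA. Committed precursor-like cells held 420.0 CPM in pool 1 and 269.7 CPM in pool 2, where non-cycling precursors held 261 and 317 CPM. In pool 1 it lay above all 10 other clusters, which ranged from 169.8 to 332 CPM, and in pool 2 it lay inside their range of 188 to 379.5 CPM. The log2 difference was 0.71 ± 0.15 (SE; edgeR adjusted p = 0.000304), made of 1.09 in pool 1 and 0.09 in pool 2. Mvd, the decarboxylase that yields isopentenyl diphosphate, stood at 62.1 and 49.9 CPM against 35.3 and 41.0 CPM in non-cycling precursors. It was above every other glial cluster in both pools, although in pool 2 the next one reached 48.7 CPM. The log2 difference of Mvd was 0.84 ± 0.30 (SE; edgeR adjusted p = 0.0370), with 1.14 in pool 1 and 0.40 in pool 2. Its call was lost under 10 of 16 alternative settings, among them leaving the shallow clusters 0 and 6 out of the reference. Hmgcs1 lost its call, with 0.08, when glial cells with at least 3 of 10 markers were set against those with none. It also lost it, with 0.41, for at least 6 markers against at most 3. Both settings changed the reference as well as the committed cells.

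The remaining mevalonate genes did not pass the test. Idi1, the isomerase of isopentenyl diphosphate, stood at 118 CPM (pool 1) and 57.9 CPM (pool 2), compared with 115 and 142 CPM in non-cycling precursors. Fdps, which makes farnesyl diphosphate, stood at 236 and 128 CPM against 162 and 220 CPM. Both genes were thus at or above the non-cycling level in pool 1 and below it in pool 2. The annotated 3′ end of Fdps overlaps Gm43738 on the same strand, so its counts are uncertain. Acat2 had 78.3 and 95.9 CPM against 60.2 and 71.7 CPM. A near-identical copy, Acat3, may share its reads. Mvk and Pmvk, kinases that phosphorylate mevalonate in turn, had ratios to the non-cycling level of 1.25 and 0.81 and of 0.93 and 0.65. Mvd, Fdft1, Lss, Cyp51, Srebf1 and Acss2 each end opposite another annotated gene (Gm20388, Ctsb, 4930483K19Rik, Akap9, Rai1 and Gss). The sources used here do not say that counting used strand, so reads of such pairs may not be separated.

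Squalene and sterol formation had 2 of 11 genes higher and none lower. Fdft1, the squalene synthase, stood at 98.2 and 71.9 CPM against 55.1 and 81.5 CPM in non-cycling precursors. It exceeded the other 10 clusters in pool 1 and lay inside their range in pool 2. The fit gave a log2 difference of 0.83 ± 0.25 (SE; edgeR adjusted p = 0.0123), with 1.31 in pool 1 and 0.09 in pool 2. The call was kept in 12 of 16 alternative settings. It was lost when the shallow clusters 0 and 6 were left out of the reference. Msmo1, a sterol C4-methyl oxidase, stood at 132 and 139.8 CPM against 96.7 and 132 CPM. The other clusters ranged up to 119.7 CPM in pool 1 and 173 CPM in pool 2, so the groups overlapped in pool 2. Its log2 difference of 0.63 ± 0.23 (SE; edgeR adjusted p = 0.0441) was lost under 10 of 16 alternative settings.

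Of the 9 sterol genes that were not called, 5 stood above the non-cycling level in pool 1 and below it in pool 2, 3 stood above it in both pools and 1 below it in both. Lss, the lanosterol synthase, had ratios to the non-cycling level of 2.02 and 0.98, and Hsd17b7, a sterol 3-keto reductase, had 2.08 and 0.85. Sqle, the squalene epoxidase, had 1.43 and 0.73. Cyp51, the lanosterol 14-alpha demethylase, had 1.501 and 0.83, and Sc5d, a sterol desaturase, had 1.12 and 0.84. Dhcr7, which catalyses a final reduction to cholesterol, was below the non-cycling level in both pools, at 0.86 and 0.37, from 31 and 10 UMIs. Ebp, the sterol isomerase, was above it in both, at 1.18 and 1.37. So were Tm7sf2, a sterol reductase, at 1.56 and 1.21 from 12 and 9 UMIs, and Nsdhl, a sterol dehydrogenase, at 1.39 and 1.02.

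Of the 5 genes of sensing and transport, Srebf1 was higher and none was lower. Srebf1 encodes the SREBP best known for driving fatty acid genes. It stood at 33.6 CPM (pool 1) and 81.9 CPM (pool 2), compared with 19.0 and 35.98 CPM in non-cycling precursors. It was above every other glial cluster in both pools. The log2 difference was 1.35 ± 0.39 (SE; edgeR adjusted p = 0.00947), with 0.99 in pool 1 and 1.62 in pool 2, from 27 and 41 UMIs in all. Srebf2, the SREBP best known for sterol genes, did not pass, with 116 and 108 CPM against 103 and 145 CPM. Insig1, which retains the SREBPs in the endoplasmic reticulum, had 42.2 and 51.9 CPM against 35.1 and 58.3 CPM. Scap, their escort protein, and Stard4, a sterol carrier, did not pass either.

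The fatty acid genes were divided between the desaturases and the rest. Scd2, the stearoyl-CoA desaturase known as the main form of the developing brain, stood at 1509 and 1448 CPM in committed precursor-like cells, against 734 and 970.1 CPM in non-cycling precursors. Its log2 difference was 1.04 ± 0.10 (SE; edgeR adjusted p = 2.64e-10), with 1.22 in pool 1 and 0.82 in pool 2. The direction depended on the setting: the difference was -0.15 when glial cells with at least 3 of 10 markers were set against those with none. With at least 6 markers against at most 3 it was 0.37 and not called. These marker gates changed the reference as well as the committed cells, so the part of each cannot be told apart. In pool 1 it lay above all other glial clusters, and in pool 2 the shallow cluster 0 was higher, at 1591 CPM. Scd1, its close relative, went the other way, with 27.3 and 15.98 CPM against 49.9 and 68.6 CPM in non-cycling precursors. It lay below every other glial cluster in both pools. The fit gave a log2 difference of -1.32 ± 0.44 (SE; edgeR adjusted p = 0.0265), with -0.93 in pool 1 and -2.12 in pool 2, from 22 and 8 UMIs. The call was lost under 5 of 16 alternative settings, both marker gates among them, with edgeR adjusted p up to 0.476.

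The 2 desaturase genes are neighbours in GRCm38, Scd2 at chr19:44293674-44306864 on the plus strand and Scd1 at chr19:44394455-44407879 on the minus strand. The share of Scd1 in the RNA of this pair differed accordingly. Scd1 gave 1.78% (exact 95% interval 1.12 to 2.68) of the Scd1 and Scd2 UMIs of committed precursor-like cells in pool 1 and 1.09% (0.472 to 2.14) in pool 2. In non-cycling precursors it gave 6.37% (5.97 to 6.78) and 6.61% (6.32 to 6.91). These intervals cover counting error only, not the spread between cells or tumours. Cycling precursors, at 5.91% and 5.74%, had higher shares than the committed precursor-like cells. So did oligodendrocyte-like cells, at 5.17% (2.70 to 8.86) and 7.17% (5.78 to 8.76). Microglia-like cells had 7.14% and 1.52%, from 2 and 1 Scd1 UMIs. In the oligodendrocyte-like cells both genes stood high, Scd2 at 2380 and 4063 CPM and Scd1 at 129.8 and 314 CPM. The low Scd1 share was thus measured in the committed precursor-like cells and not in the oligodendrocyte-like ones. The 2 genes are paralogs, and reads that cannot be placed between them could shift the share. How such reads were counted is not given in the sources used here.

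Other fatty acid genes did not pass the test. Fasn, the fatty acid synthase, stood at 126 and 156 CPM against 123 and 170.4 CPM. Acaca, the acetyl-CoA carboxylase, had 55.9 and 37.95 CPM against 49.7 and 52.9 CPM. The elongases Elovl5 and Elovl6 were below the non-cycling level in both pools, with ratios of 0.78 and 0.83 for Elovl5 and 0.82 and 0.56 for Elovl6. Acly, which makes cytosolic acetyl-CoA from citrate, had ratios of 1.15 and 0.73. Without Scd2 the other 7 fatty acid genes summed to 456 and 409 CPM in committed precursor-like cells, below the 497 and 588 CPM of non-cycling precursors in both pools.

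**Figure D2:**
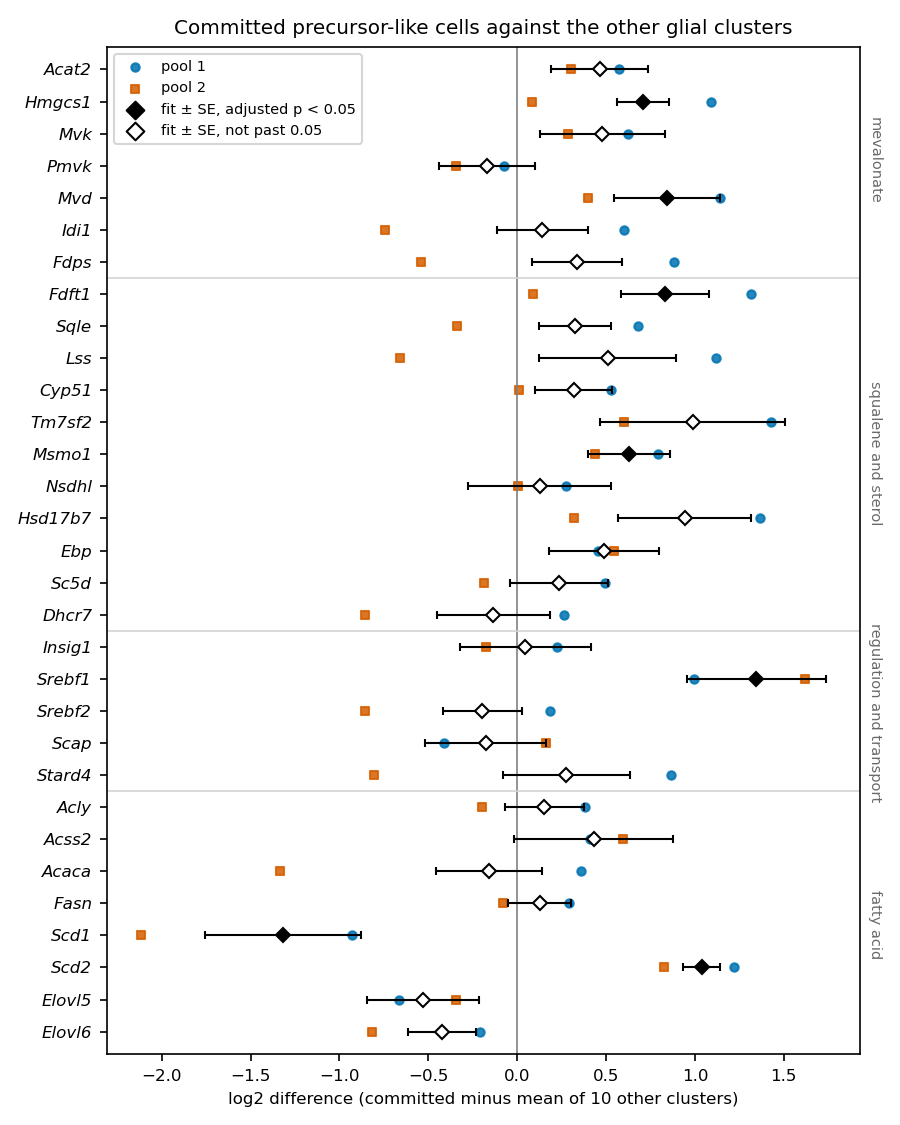
Log2 difference (x axis) of each of the 31 genes (y axis, grouped by role) between committed precursor-like cells and the mean of 10 other glial clusters, as the fit over both pools with its SE and as the value in each pool. Most sterol genes lie further right in pool 1 than in pool 2, while Scd2 and Srebf1 lie right of 0 and Scd1 left of 0 in both.

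To compare cells at 1 depth, each was thinned to 5000 UMIs. The median cell then held 8 and 7 sterol enzyme UMIs in committed precursor-like cells, from 45 and 25 cells, against 5 and 7 in non-cycling precursors. For the fatty acid genes the medians were 10 and 8 against 6 and 7. At this depth 8.89% and 4% of committed precursor-like cells had a Scd1 UMI, against 21.1% and 27.2% of non-cycling precursors. Before thinning the shares were 24.1% and 19.4% against 40.0% and 51.5%. For Srebf1 the thinned shares were 15.6% and 28.0% against 8.90% and 15.1%.

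Genes around the 2 routes were read from 4 further lists. Of 12 genes of fatty acid elongation and myelin lipids, 8 were higher in committed precursor-like cells and none was lower, with a median log2 difference of 1.10. They were Fa2h, Ugt8a, Gal3st1, Cers2, Elovl1, Elovl7, Tecr and Degs1. Fa2h, which hydroxylates the fatty acids of myelin galactolipids, stood at 190.1 and 162 CPM against 10.6 and 8.83 CPM in non-cycling precursors. Its log2 difference was 4.79 ± 0.24 (SE; edgeR adjusted p = 5.77e-19). Ugt8a, which adds galactose to ceramide, stood at 475 and 475 CPM against 105 and 110.4 CPM. Gal3st1, which makes sulfatide, stood at 306 and 249.7 CPM against 71.4 and 73.5 CPM. Elovl7, an elongase, stood at 145 and 182 CPM against 8.89 and 6.97 CPM. Both pools moved the same way in this list, with median log2 differences of 1.17 and 0.999.

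Of 17 tested genes of sterol regulation, uptake, storage and efflux, 2 were higher and 1 was lower, where 12.5% and 9.46% of all genes were called, so the counts were not above the background. Vldlr, a lipoprotein receptor, had a log2 difference of 0.99 ± 0.23 and Soat1, which esterifies cholesterol for storage, 0.82 ± 0.27. Abcg1, a sterol efflux pump, had -1.32 ± 0.26. Of 8 isoprenoid genes, Pdss1 and Coq2 of ubiquinone synthesis were higher. Of 10 genes of fatty acid oxidation, Cpt2 and Hadha were higher, Cpt2 by 1.23 in pool 1 and 2.91 in pool 2 on the log2 scale. None was lower in either list, and their medians, -0.09 and 0.24, lay beside -0.001 over all genes tested.

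The promoters of genes called higher were read because SREBP targets are known by their binding letters. Of the 31 genes, 25 had an entry in the RefSeq promoter table of GRCm38.p6, 31 windows in all. Fdft1, Fdps, Scd1, Scd2, Sqle and Stard4 were not matched. Msmo1, also called higher, was matched, but its window lies in an annotated exon of another transcript and is not shown. The windows below run from 200 to 51 bases before the start site on the gene's strand. Capitals mark the sterol regulatory element TCACNCCAC, the box CCAAT bound by NF-Y, and the GC box bound by Sp1, whose letters are GGGCGG. Matches on the opposite strand are marked too and then read as the reverse complement. Hmgcs1 is at chr13:119690151-119690300 on the plus strand, and Mvd is at chr8:122443473-122443622 on the minus strand. Srebf1 has windows before 2 start sites shown here, at chr11:60222632-60222781 and chr11:60210522-60210671 on the minus strand, the second inside an intron.
Hmgcs1: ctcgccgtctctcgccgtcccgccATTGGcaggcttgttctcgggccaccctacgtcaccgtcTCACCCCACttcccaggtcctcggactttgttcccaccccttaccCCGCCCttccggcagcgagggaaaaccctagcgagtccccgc
Mvd: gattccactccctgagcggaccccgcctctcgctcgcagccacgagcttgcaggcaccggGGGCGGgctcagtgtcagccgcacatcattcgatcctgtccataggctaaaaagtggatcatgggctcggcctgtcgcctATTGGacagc
Srebf1, first site: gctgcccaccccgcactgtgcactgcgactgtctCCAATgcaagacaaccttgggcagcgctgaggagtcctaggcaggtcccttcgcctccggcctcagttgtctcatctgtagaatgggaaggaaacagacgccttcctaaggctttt
Srebf1, inner site: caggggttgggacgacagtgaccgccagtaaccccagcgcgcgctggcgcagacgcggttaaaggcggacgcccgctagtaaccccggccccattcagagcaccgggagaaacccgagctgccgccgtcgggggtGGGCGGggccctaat
Hmgcs1 held the sterol regulatory element with its first base at -137. In the whole 300-base windows, read on both strands, these letters were in 1 of 31 member windows (3.23%) and in 1.24% of all 32851. The CCAAT box was in 22 member windows (71.0%) and in 37.4% of all. The GC box was in 23 (74.2%) and in 35.7% of all, and the palindromic E-box CACGTG in 7 (22.6%) and 7.15%. These matches describe letters and are not measured binding sites. The remaining start site of Srebf1 had no searched motif in this stretch.

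Whether cycling cells differ was asked first within clusters. Clusters 3, 4, 5 and 7 held at least 5 cycling and 5 non-cycling cells in each pool, and these were compared in each cluster and pool with edgeR over 8647 genes. None of the 31 genes was called in this test, where 0.278% of all genes were called higher and 0.139% lower. Most cycling cells in it came from cluster 7, 71 and 52 in the pools, while cluster 4 gave 5 and 6. The 32 and 31 non-cycling cells of cluster 7 shared a cluster led by Pclaf, Mcm3 and Gmnn. Non-cycling there means only that none of the 10 core genes was detected. The test thus covers a small part of the cycling cells. Fdps alone had an unadjusted p under 0.05 in the edgeR fit, and its adjusted p was 0.563. DESeq2 called 0 as well. The median log2 difference was -0.10 against -0.06 over all genes tested. Hmgcs1 had a difference of 0.08 with a 95% interval of -0.20 to 0.37, and Scd2 one of -0.05 with an interval of -0.30 to 0.19. Fasn had 0.09 with an interval of -0.23 to 0.42. For low genes such as Acss2, an acetyl-CoA synthetase, the interval of -1.87 to 0.02 was wide, so sizeable changes could not be seen at this depth. In simulated data this test recovered 53.5% of genes changed by a log2 of 1, so changes of that size could be missed.

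Most cycling cells lay in clusters of their own. Clusters 2, 7 and 9 were therefore set against non-cycling clusters 1, 3, 4, 5 and 8, a comparison added after the data were seen. Of the 31 genes, 2 were higher and 8 lower, where 16.6% of all genes were called higher and 15.3% lower. The median log2 difference was -0.10, against -0.04 over all genes tested. Median depth in the cycling clusters was 13088 to 20925 UMIs and in the reference clusters 9768.5 to 19511.5, and its part in the result was not tested. Clusters 3, 4, 5 and 7 entered both comparisons.

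Of the 8 lower genes, 5 were sterol enzymes. Hmgcs1 ranged from 182 to 226 CPM in the cycling clusters of pool 1 and from 208 to 266 CPM in those of pool 2, where the reference clusters had 169.8 to 332 and 188 to 379.5 CPM. The ranges overlapped, since cluster 5 of the reference was low. Its log2 difference was -0.32 ± 0.08 (SE; edgeR adjusted p = 0.00230). Mvd had 17.6 to 27.7 and 16.7 to 34.2 CPM against 28.4 to 40.0 and 28.5 to 48.7 CPM, with a log2 difference of -0.59 ± 0.13. In pool 1 its groups did not overlap. Dhcr7 had 30.3 to 34.7 and 34.7 to 48.7 CPM against 33.8 to 50.9 and 37.4 to 60.7 CPM, with a log2 difference of -0.45 ± 0.12. Idi1 and Msmo1 had log2 differences of -0.31 ± 0.11 and -0.28 ± 0.11, the latter with -0.15 in pool 1 and -0.42 in pool 2, and both calls were lost, as was that of Acly below, when the shallow clusters entered the reference.

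Both desaturases were lower in cycling clusters. Scd2 had 518 to 625 and 552 to 692 CPM in the pools against 615 to 890.2 and 711 to 1157 CPM, overlapping slightly in pool 1. Its log2 difference was -0.41 ± 0.07 (SE; edgeR adjusted p = 3.10e-05). Scd1 had 34.3 to 40.7 and 25.2 to 44.8 CPM against 43.4 to 64.1 and 51.6 to 84.4 CPM. It was the only one of the 31 genes whose cycling clusters lay below the reference clusters in both pools. The fitted log2 difference of Scd1 was -0.52 ± 0.13, with -0.34 in pool 1 and -0.74 in pool 2. Acly had a log2 difference of -0.25 ± 0.09, with -0.16 and -0.31 in the pools. The higher genes were Elovl5, an elongase of unsaturated chains, at 0.44 ± 0.10, and Acat2, at 0.28 ± 0.11. Acat2 had 0.43 in pool 1 and 0.14 in pool 2, and its call was lost without the pool in the model. Hmgcs1, Mvd, Dhcr7, Scd1, Scd2 and Elovl5 kept their calls under all 5 alternative settings tried.

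Beyond the 31 genes, cycling clusters had 1 of 17 genes of sterol regulation and efflux higher and 6 lower. For this list and the next 3 the shares over all genes are those given above, 16.6% higher and 15.3% lower. Abcg1 and Abca1, both sterol efflux pumps, had log2 differences of -0.48 ± 0.08 and -0.67 ± 0.12. Npc2, a lysosomal sterol carrier, had -0.30 ± 0.08, and Erlin1 had 0.57 ± 0.15. Isoprenoid genes had 3 of 8 higher and 2 lower, with Fntb, a subunit of protein farnesyltransferase, at 0.79 ± 0.18 and Pdss1 at 0.81 ± 0.24, the latter with 2.51 in pool 1 and 0.25 in pool 2. Of the 12 elongation and myelin lipid genes, Elovl1, Gal3st1 and Elovl7 were lower and none was higher. Of 10 oxidation genes, Acadvl, Acadm and Acaa2 were lower and none was higher.

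**Figure D3:**
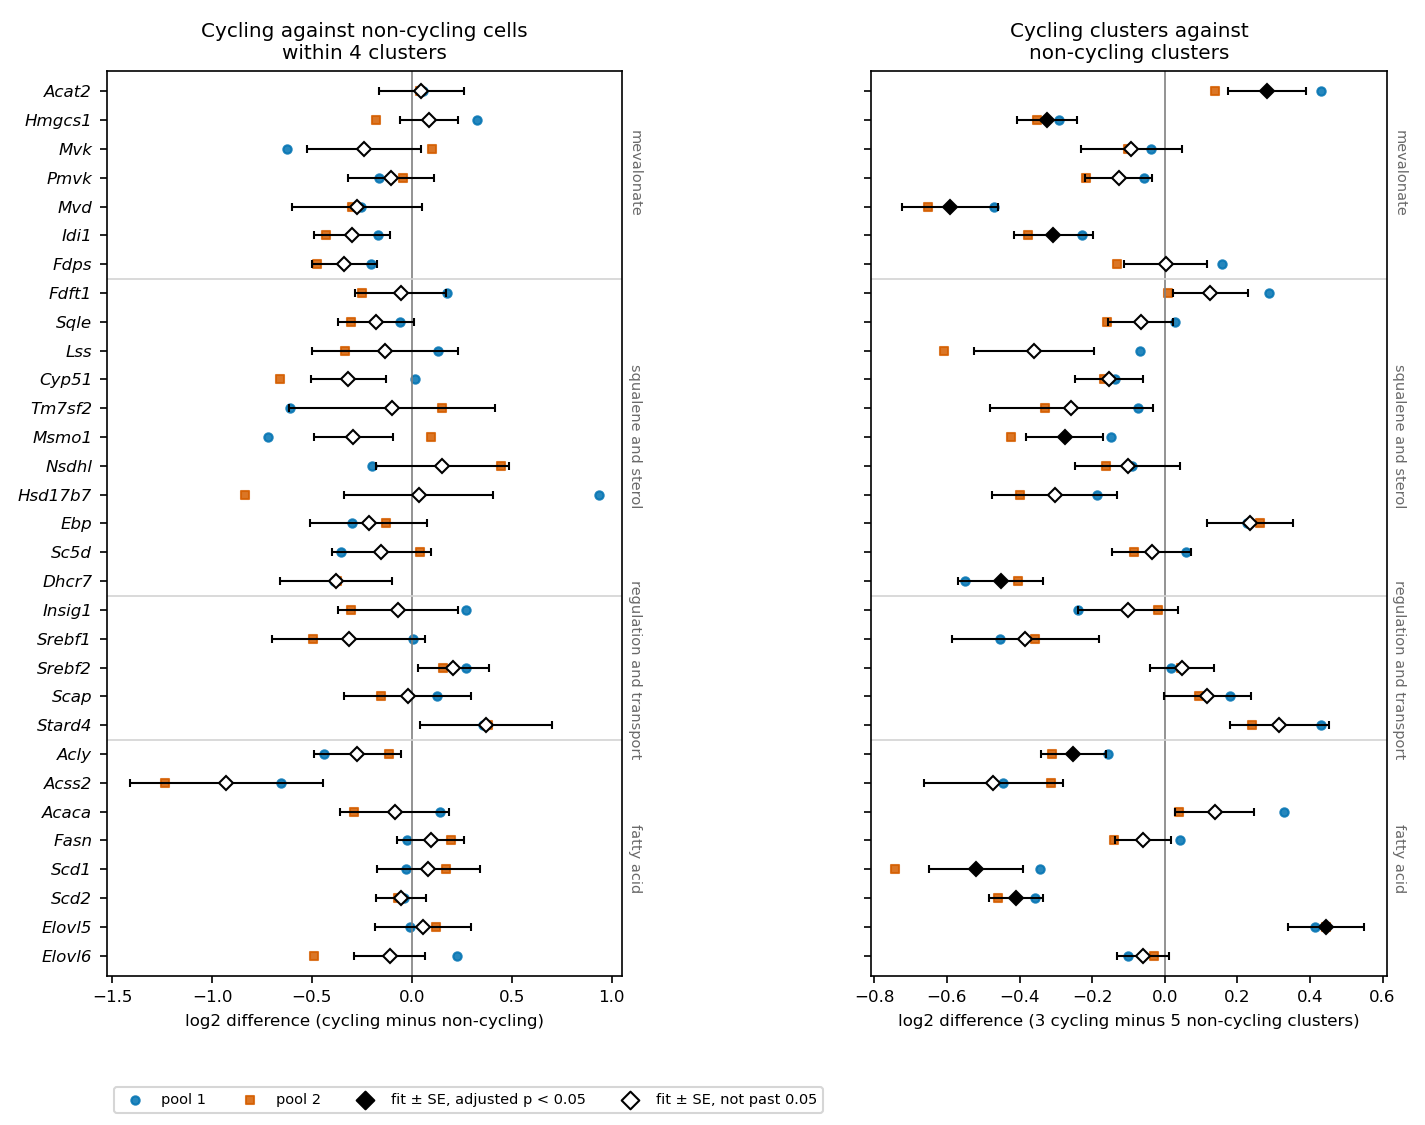
Log2 differences (x axis) of the 31 genes (y axis) between cycling and non-cycling cells of the same cluster (left) and between cycling and non-cycling clusters (right), with the fit and its SE and the value in each pool; the x scales differ. No gene was called on the left, and 2 higher and 8 lower genes were called on the right.

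Phase was read among the cycling cells as values, because only 1 cluster held enough cells scored S and G2/M for the planned test. G2/M-scored cells, 257 and 198, were lower than S-scored cells, 176 and 113, for 25 of the 31 genes in pool 1 and 21 in pool 2. The median ratios were 0.83 and 0.94. The matching share over all genes is not given here, so these counts are not shown to be particular to the 31 genes. Cyp51 stood at 72.6 and 94.0 CPM in G2/M-scored against 135 and 132 CPM in S-scored cells, and Fdps at 119.6 and 155 CPM against 192 and 204 CPM. Srebf1 stood at 11.9 and 16.3 CPM against 19.4 and 29.5 CPM. These 3 were lower in both pools. Scd2 had 613 and 678 CPM against 617 and 642 CPM. A test added after the data were seen, of the mitotic cluster 2 against clusters 7 and 9, called Fdps and Cyp51 lower and Elovl6 higher. There 5.77% of all genes were called higher and 5.99% lower. The log2 differences were -0.62 ± 0.20, -0.60 ± 0.16 and 0.35 ± 0.12 (SE; edgeR adjusted p = 0.0338, 0.0115 and 0.0475). Fdps had -1.0002 in pool 1 and -0.24 in pool 2, and Cyp51 had -0.83 and -0.39. Of 4 alternative settings, Cyp51 kept its call in 3, Fdps in 2 and Elovl6 in 1.

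Most sterol enzymes varied together across the glial clusters. Each gene's level over the 11 clusters was correlated with the sum of the other sterol enzymes, within each pool. The median Pearson correlation was 0.63 in pool 1 and 0.60 in pool 2 for the 18 enzymes, and 12 of them exceeded 0.5 in both pools. For the fatty acid genes it was -0.09 and 0.44, and 0 of 8 exceeded 0.5 in both. The points are 11 clusters of 1 library that differ in depth, so these values are descriptions. Correlations of all other genes with this sum are not given here, so the values are not shown to be particular to the sterol enzymes.

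Cluster 5, led by Vgf, Hmga2, Ifit3 and S100a10, had the lowest summed sterol enzyme level in both pools, 923 and 1091 CPM against medians of 1303 and 1523 CPM over the 11 clusters. It was singled out after its values were seen. Each cluster's test shares its reference clusters with the others, so these results are not independent. Against the mean of the other glial clusters 11 of the 31 genes were lower in it and none was higher, where 6.43% of all genes were called lower and 13.5% higher. The 11 were Hmgcs1, Idi1, Fdft1, Sqle, Lss, Cyp51, Msmo1, Sc5d, Srebf2, Stard4 and Elovl5. Lss had -0.997 in pool 1 and -0.30 in pool 2. Stard4 stood at 13.3 and 21.9 CPM against other clusters of 21.0 CPM or more in pool 1 and 22.0 CPM or more in pool 2. The fit gave -1.13 ± 0.21 (SE; edgeR adjusted p = 8.56e-05). Srebf2 stood at 75.7 and 95.2 CPM, below all other clusters, which began at 94.2 and 108 CPM. Hmgcs1, Sc5d, Srebf2, Stard4 and Insig1, the last not called, were at their lowest there in both pools. In the same cluster the oxidation genes Acaa2, Acadl, Acadvl and Cpt1a were higher, by 2.16 ± 0.28, 1.05 ± 0.13, 0.72 ± 0.14 and 0.64 ± 0.18. The cells were deep, with medians of 14995 and 19511.5 UMIs.

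The other clusters held smaller or mixed sets. Cluster 4, led by S100a6, Neu4 and Gpr17, a known marker of precursors nearing commitment, had Hmgcs1, Mvk, Pmvk and Fdft1 higher and none lower, where 11.1% of all genes were called higher and 5.57% lower. Mvk had 0.71 in pool 1 and 0.29 in pool 2 there. Cluster 3 had 6 higher and 1 lower, where 18.8% and 11.1% of all genes were called. Cluster 1 had 4 higher (Idi1, Msmo1, Sc5d and Scd1) and none lower, where 6.63% and 3.67% were called. All 4 calls rest on pool 2, with log2 differences of 0.86, 0.56, 0.74 and 0.81 there and of -0.02, 0.07, -0.08 and 0.08 in pool 1. Its summed sterol enzyme level was the highest of the 11 clusters in pool 2, at 2093 CPM, and 1246 CPM in pool 1, below the median. The shallow cluster 0 had 6 higher and 11 lower, where 27.2% and 28.2% of all genes were called. Its median mitochondrial share was 4.76% and 4.62%, against 2.97% and 1.44% of all kept cells, and depth and cell state cannot be told apart there. Of the cycling clusters, cluster 2 had 2 higher and 4 lower (14.1% and 6.98% of all genes), cluster 7 had only Scd2 lower (9% higher and 1.88% lower of all genes) and cluster 9 had 2 higher and 6 lower (15.7% and 5.71%). In cluster 9, Lss, Msmo1, Scd1 and Elovl5 were called with log2 differences of -0.44, -0.13, -0.25 and 0.31 in pool 1 and of -1.01, -0.94, -1.14 and 0.70 in pool 2. Clusters 6 and 8 had none of the 31 called. Over all genes 0.489% and 0.142% were called higher and lower in cluster 6, and 1.93% and 0.64% in cluster 8.

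**Figure D4:**
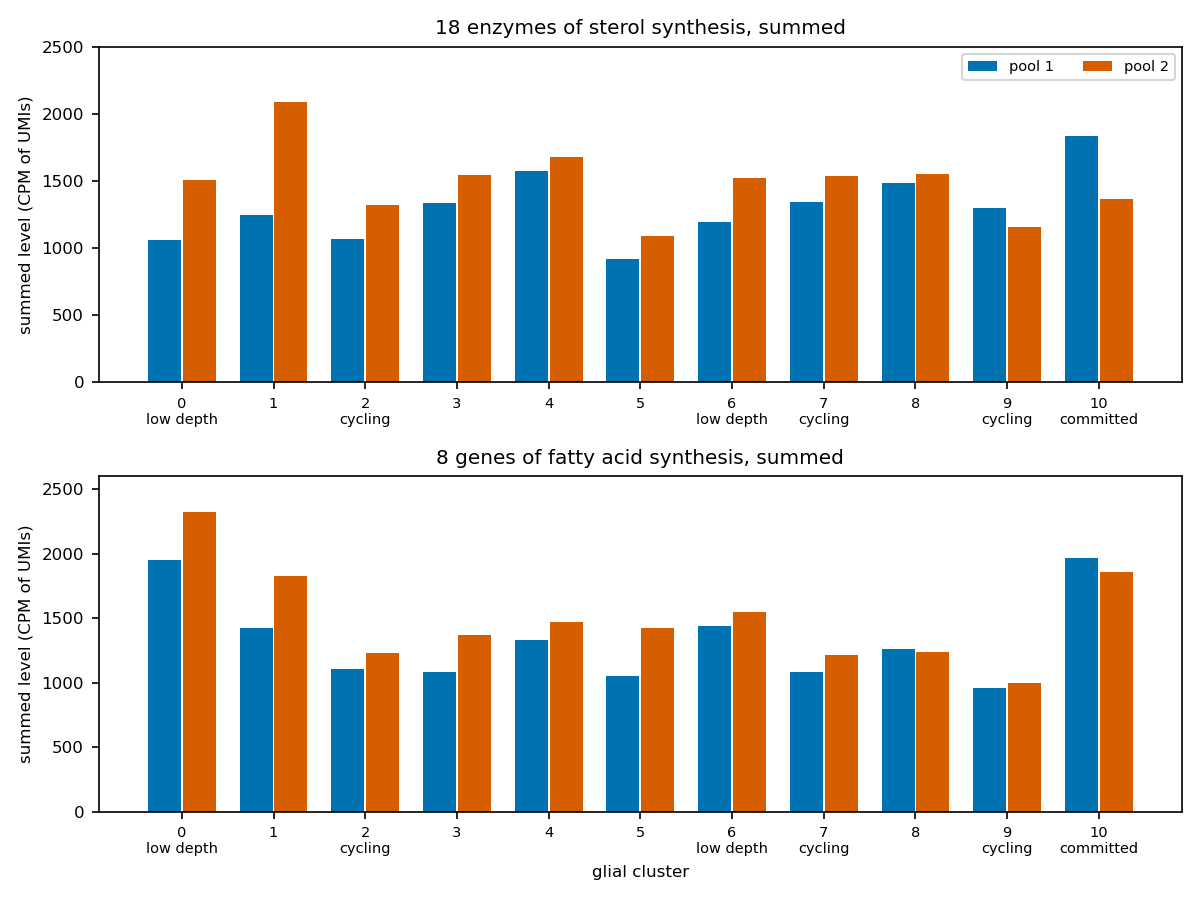
Summed levels (CPM of UMIs, y axis from 0) of the 18 sterol enzymes (top) and of the 8 fatty acid genes (bottom) in the 11 glial clusters (x axis), as a bar for each pool, without replicates inside a pool. The sterol sum is lowest in cluster 5 in both pools, at 923 and 1091 CPM, and the committed cluster 10 is the highest in pool 1 only.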

How the data were processed

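Single cells of sorted glioma were measured in 2 libraries using 10x Genomics 3ʹ kits (v3.1, Dual Index), per the labels. Cell Ranger 6.0.2 and the builds GRCm38 and mm10 are named in the submitters' processing notes. The tables that the authors deposited hold whole-number UMI counts for each gene and barcode, without normalization. Filters applied before deposit, and how reads shared by paralogs were counted, are not given in the sources.

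Barcodes with under 500 genes or over 15% mitochondrial UMIs were dropped, 337 in pool 1 and 372 in pool 2. Each count was divided at random (probability 0.5) into a training and a held-out portion. Clusters were formed on training counts scaled to 10000 for each cell, with 1000 variable genes, 30 principal components, 15 neighbours and Leiden resolution 0.8 (Python 3.11.15, scanpy 1.11.5, igraph 0.11.9). The 31 genes, the other pathway lists and the cell cycle genes were kept out of clustering, and the clustering genes out of the calls. Scrublet called 2 doublets, 0.0295% of cells, too few for it to have worked, and doublets remain.

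Every cell was thinned to 2000 training UMIs, and those with 2 or more of 10 core cell cycle genes detected were called cycling and those with 0 non-cycling. The 314 and 265 cells with 1 such gene, and 1156 and 835 cells of too little depth, got no call. S and G2/M scores used 15 genes each.

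For tests the held-out counts were added up for each cluster of each pool and fitted with edgeR 4.0.16 in R 4.3.3 (limma 3.58.1; quasi-likelihood, TMM, filterByExpr), with the pool as a term. There were 22 libraries and 10 residual degrees of freedom, and 16 and 7 for the cycling test within clusters, where pool and cluster were the block. The spread was also shared across genes, which brought the total degrees of freedom to 37.2, and to 64001 in that cycling test. The p-values and intervals of the cycling test thus rest on a spread common to the genes, not on each gene's own. p-values were Benjamini-Hochberg adjusted over all genes tested, with a threshold of 0.05. The fit was tested on simulated data with 200 genes changed by a log2 of 1. It recovered 39.5% of them in the committed comparison, with 2 false calls, and 53.5% in the cycling test within clusters, with 5. Values per pool are differences within 1 pool with no test. Levels are CPM of all counts. Shares of UMIs between genes, as for the desaturases, are not scaled by length, and a 3ʹ count depends on the gene's end.

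Every one of the 31 genes was named; per-pool values were given first for genes past the threshold with 1 direction in both pools, and up to 4 genes of smallest p were taken from each further list. Members and lists were chosen with earlier results of these data known. Positions came from GENCODE vM21 (GRCm38). Alternatives covered scaling, filters, the tool (DESeq2 1.42.0), the model, cell filters, doublets, the split, resolution, reference clusters and the definition of states.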

Additional observations from a re-analysis of the deposited data

How the results depend on the processing

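In the committed comparison the count of genes higher among the 31 moved from 6 to 2 without the pool in the model and to 3 at Leiden resolution 0.5. It moved to 0 when glial cells with at least 3 of 10 markers were set against those with none. It moved to 1 with at least 6 against at most 3, a gate added after seeing the data. Both gates changed the reference as well as the committed cells, and their fits held fewer libraries. Those 2 gates also brought the lower genes from 1 to 0 and all calls from 2468 to 612 and 665. The lower count was likewise 0 with non-cycling cells only and with a second random split. Scd2 turned to -0.15 with the gate of 3 markers. It kept its call, as Hmgcs1 did, in 14 of 16 settings, Srebf1 in 13, Fdft1 in 12, Scd1 in 11, and Mvd and Msmo1 in 6 each. With 1 pool left out the median log2 difference of the 31 genes ran from -0.08 to 0.53.

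In the cycling comparison within clusters 0 genes of the 31 were called in every setting that could be fitted. All calls moved from 36 to 12 without the pool in the model, 10 with DESeq2, 89 with all counts, 181 with a second split and 186 with thinning to 1000 UMIs. The median of the 31 genes was -0.24 with the second split and 0.055 with that thinning, and -0.16 to -0.03 with 1 pool left out. At least 4 core genes left too few clusters, so that setting was not run.

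Between cycling and non-cycling clusters, 4 genes were higher with shallow clusters in the reference, and without the pool in the model 1 was higher and 5 lower. The median ran from -0.16 to -0.07 with 1 pool left out. For the mitotic cluster, no gene was higher (0) with RLE scaling, without the filter or without the pool in the model, and 0 were lower without the pool and 1 with all counts. Its median ran from -0.077 to 0.13 with 1 pool left out. States were compared within pools, with the pool as a term, and the model without the pool is the unpaired fit. With 54 and 31 committed precursor-like cells, genes of few UMIs could show only large differences. The causes were not tested.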
